A study of Sus scrofa with 33 samples.

Results

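The secretory granule is the vesicle in which an endocrine cell of the pituitary stores its hormones until release. Granins (CHGA, CHGB, SCG2, SCG3, SCG5 and VGF) are acidic proteins that are packed into the granule with the hormone. Hormone precursors are cut inside it by the prohormone convertases PCSK1 and PCSK2, trimmed by the carboxypeptidase CPE and amidated by PAM. PCSK1 and PCSK2 share the precursor of the melanocortins, POMC, as a substrate, and PCSK2 is best known for the smaller peptides of the intermediate lobe.

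These 10 genes were followed on 33 arrays of pig pituitary. A probe was taken when the array named it after 1 of the genes, which gave 41 probes in 8 genes. A further 4 probes, which the array lists under the older names PC1/3 and PC2, were added through their RefSeq accessions. The resulting 45 of 60305 probes covered 9 of the 10 genes: 16 for CHGB, 8 for CPE, 4 each for CHGA, SCG3 and PCSK1, 3 each for SCG2 and PAM, 2 for SCG5 and 1 for PCSK2. No probe carried the name VGF, so VGF was not measured here. Each of the 45 probes exceeded background on each of the 33 arrays, so the filter on dim probes removed none of them. Probes whose names begin with O have no position in a transcript in the array files. By their bases 3 of them (O9241 of CHGB, O9972 of SCG2 and O9985 of CPE) appear to run opposite to the coding strand, which no transcript sequence was at hand to check. Whether they measure the mRNA of their gene cannot be told, and counts are also given without them.

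Each array held the pituitary RNA of 1 castrated male growing pig, with no pooling. The pigs were Large White (LW), Creole (CR) or their cross (F1), killed under thermoneutral conditions (TN) or after 4 or 5 days of heat (heat stress, HS). TN pigs are labelled 24 °C and HS pigs 30 °C, but the growth protocol and the methods of the study put the heat period at 32 °C. The groups were LW TN (5 arrays), LW HS (6), CR TN (5), CR HS (6), F1 TN (6) and F1 HS (5). The TN pigs were killed earlier, ahead of the heat period, and the HS pigs at its end, so age and slaughter day cannot be told apart from temperature. The array LW HS 3 has Large White in its title and Creole in its breed field, and it was analysed by its title. In whole tissue, fewer cells of a type and less RNA per cell cannot be told apart.

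The share of spots well above background ran from 73.5% to 82.2% over the arrays, and 0 spots were saturated. Pituitary hormone genes were bright on all arrays, with mean log2 intensities of 19.02 for GH1 (growth hormone), 19.01 for POMC and 18.87 for PRL (prolactin). The posterior lobe hormones AVP (16.99) and OXT (15.67) also exceeded background on each of the 33 arrays, although the methods of the study name the anterior lobe. Of 5 intermediate lobe markers only PAX7 was measured, at 8.48.

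The arrays LW TN 2 and CR TN 1 stood apart from the other 31. TSHB, the beta chain of thyrotropin, was at 8.55 and 10.57 on them and between 13.70 and 16.35 on the others. CRYM and LHX2, listed here as posterior lobe markers, were at 10.60 and 10.98 and at 8.34 and 8.52, above their highest values on other arrays (8.91 and 7.24). The intermediate filament gene VIM, the endothelial gene VWF and the matrix gene MGP were likewise above all other arrays on both. Not every marker of these lists moved this way. LUM (10.32 and 10.28), SLC17A6 (9.27 and 9.40) and AVP lay within the range of the others. ALDH1A1 was at 12.55 on LW TN 2, below all others (12.80 or more). LHB, FSHB and the mean of the neuron list were below all other arrays on both, while POMC was highest on LW TN 2 (19.12). Both arrays are TN arrays, so the differences between temperatures are also given without them.

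Levels are log2 quantile-normalized intensities of the main probe of each gene, which is the brightest that the array names after the gene, or for PCSK2 its only probe, added by accession. For PCSK1 an accession-matched probe of the same sequence, A_72_P003306, was brighter (13.13). They can be compared between arrays for 1 probe but not between probes. Coordinates are those of RefSeq on Sscrofa11.1. CHGB (chromosome 17, 14747282 to 14761995) averaged 18.55, within the 54 brightest of the 47083 probes kept, and CHGA (chromosome 7, 114345542 to 114357799) averaged 17.36. SCG2 (chromosome 15, 125420773 to 125426303) averaged 16.08, SCG3 (chromosome 1, 120045302 to 120090035) 13.76 and SCG5 (chromosome 1, 136525920 to 136590021) 15.48. Among the enzymes, CPE (chromosome 8, 43568744 to 43695475) averaged 15.90, PCSK1 (chromosome 2, 103004794 to 103050707) 12.95, PAM (chromosome 2, 108255923 to 108536192) 11.50 and PCSK2 (chromosome 17, 25681424 to 25920690) 8.23.

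Variation between pigs of 1 group differed widely among the main probes of the members. The SD within groups was 0.120 for CHGB, whose lowest and highest arrays lay 1.36-fold apart. It was 0.198 for SCG5, 0.237 for PAM, 0.302 for SCG2, 0.304 for CPE, 0.311 for CHGA, 0.347 for SCG3 and 0.418 for PCSK1. PCSK2 had the largest SD, 0.829, and ranged 19.7-fold from 5.96 on CR HS 4 to 10.26 on LW TN 2. No other main probe ranged more than 2.83-fold. Other probes of a gene could differ from its main probe in spread, so this order is one of probes. The SD within groups reached 0.247 for CHGB (A_72_P640588) and 0.548 for PCSK1 (A_72_P180766). For PAM it was 0.134 on A_72_P189736 and 0.591 on O7890.

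**Figure D1:**
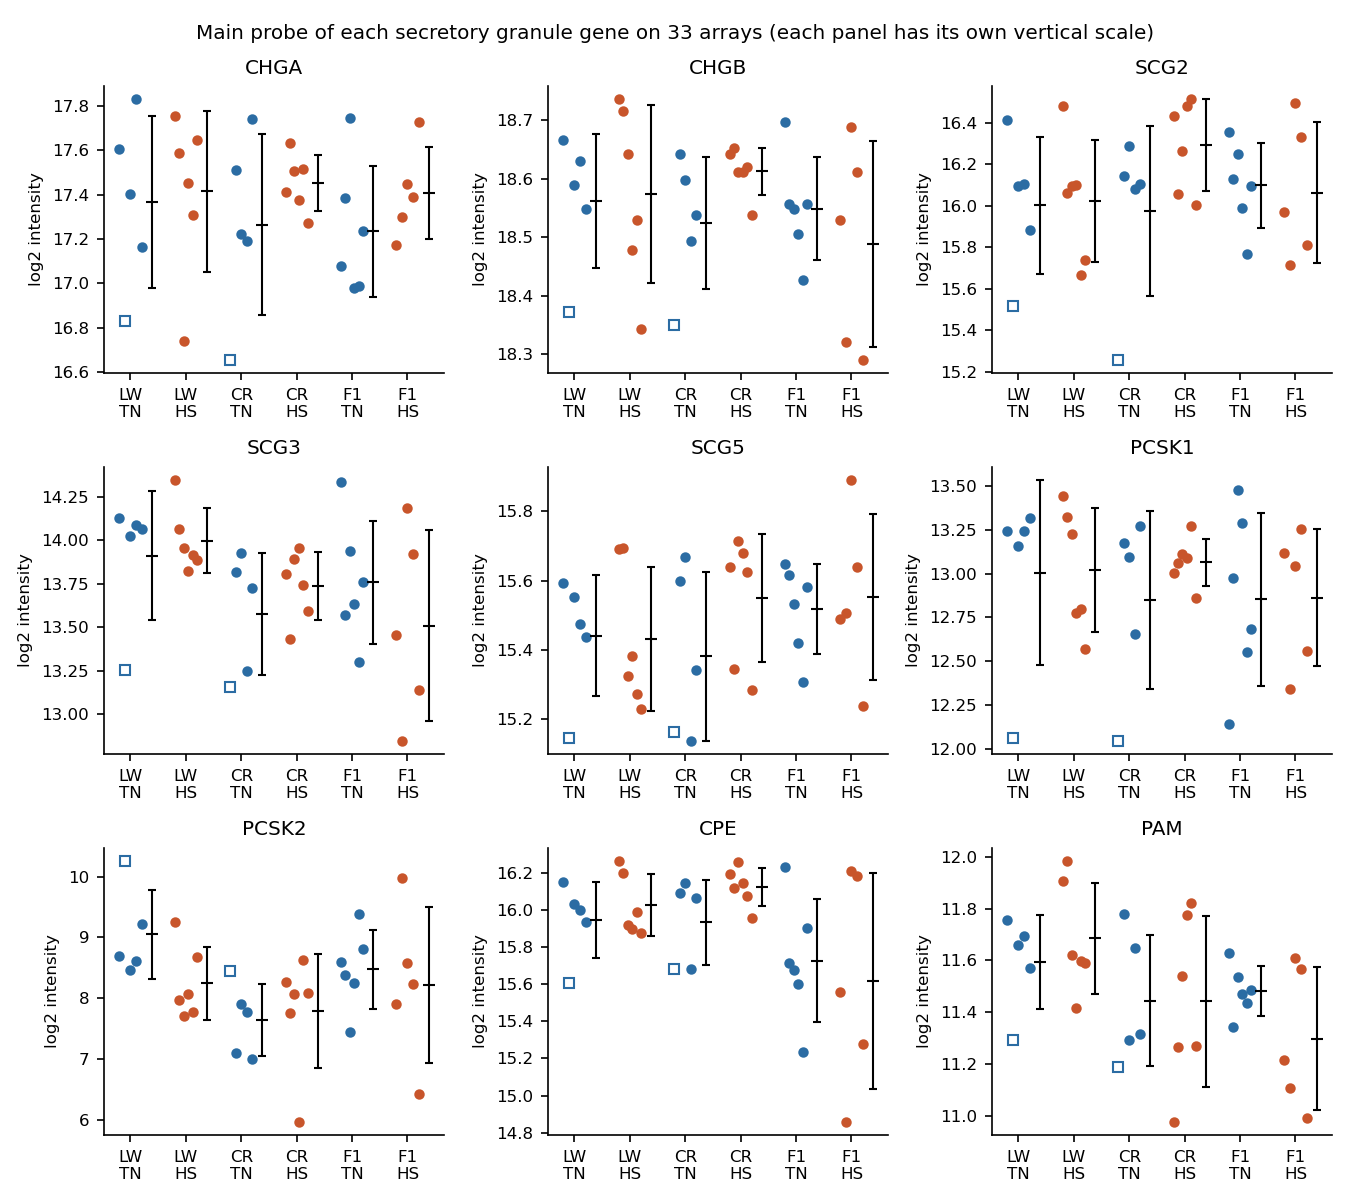
Log2 intensity of the main probe of 9 secretory granule genes (vertical axis, own scale in each panel) by breed and temperature (horizontal axis). Points are arrays, blue for TN and orange for HS, open squares are LW TN 2 and CR TN 1, and black bars are the group mean ± SD (n = 5 or 6); TN and HS values overlap within each breed in every panel, and PCSK2 spans the widest range.

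The first question was whether heat exposure changed the genes of granule content and processing. None of the 45 probes passed the adjusted threshold of 0.05 in the comparison of 17 HS with 16 TN arrays, in which 0.0191% of all 47083 probes passed (9 probes). At an unadjusted P under 0.05 there was 1 of 45, against 8.68% of all probes. The lowest adjusted P among the 45 was 0.440.

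Among the granins, CHGA was between 16.66 and 17.83 on the TN arrays (median 17.23) and between 16.74 and 17.75 on the HS arrays (median 17.45). The ranges overlapped almost entirely, although 14 of 17 HS arrays lay above the TN mean of their breed. Its difference of HS minus TN was 0.14 on the log2 scale (95% interval -0.07 to 0.34, adjusted P = 0.740). It was 0.046 without LW TN 2 and CR TN 1 (interval -0.14 to 0.23, adjusted P = 0.936), and 10 of 17 HS arrays lay above the TN mean of their breed. CHGB differed by 0.013 (interval -0.079 to 0.105), SCG2 by 0.10 (-0.11 to 0.31), SCG3 by 0.0005 (-0.24 to 0.24) and SCG5 by 0.065 (-0.073 to 0.203), with adjusted P of 0.813 or more. For CHGB the interval was the narrowest of the members.

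Among the enzymes, PCSK1 differed by 0.08 (interval -0.19 to 0.36), CPE by 0.05 (-0.15 to 0.26) and PAM by -0.03 (-0.20 to 0.13). PCSK2 ran from 7.00 to 10.26 on the TN arrays and from 5.96 to 9.98 on the HS arrays. Its difference was -0.30 with the widest interval of all, from -0.86 to 0.25. The adjusted P of these 4 genes lay between 0.785 and 0.940, and HS and TN values overlapped for each. Without LW TN 2 and CR TN 1 the difference of PCSK2 shrank to -0.14 (-0.69 to 0.41) and that of SCG5 to 0.022 (-0.12 to 0.16), while that of PAM was -0.08 (-0.25 to 0.08). The 9 main probes then lay between -0.14 and 0.046, with adjusted P of 0.839 or more.

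The 1 probe with an unadjusted P under 0.05 lies in the coding part of CHGA, which encodes chromogranin A, the first granin described. Its sequence is shown because it gave the largest positive HS minus TN difference among the 45 probes:
A_72_P048586: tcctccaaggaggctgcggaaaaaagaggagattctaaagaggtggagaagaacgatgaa
It was between 8.65 and 10.29 on the TN arrays (median 9.57) and between 9.22 and 10.56 on the HS arrays (median 9.84). The groups overlapped, and 16 of 17 HS arrays lay above the TN mean of their breed. The difference was 0.30 (SE 0.12, adjusted P = 0.440), with HS higher on 4 of 5 slides. It was 0.19 without LW TN 2 and CR TN 1 (adjusted P = 0.725), with 12 of 17 HS arrays above the TN mean of their breed. The lowest value was that of CR TN 1. The main CHGA probe correlated with it at r = 0.90 across arrays, and the probe O7353 with the main probe at 0.84. The remaining CHGA probe, A_72_P479234, did not follow them (r = 0.059 with the main probe), and its HS minus TN difference was -0.025.

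By direction, 37 of 45 probes were higher in HS and 8 lower (median 0.034), while 53.9% of all probes were higher (median 0.0078). Without LW TN 2 and CR TN 1 the split turned to 12 higher and 33 lower (median -0.025). With arrays weighted by their fit it was 22 to 23. Without the 3 probes of doubtful strand it was 35 to 7, and 11 to 31 once those 2 arrays were left out too. By the main probe of each of the 9 genes it was 7 to 2, and 2 to 7 without those arrays. On LW TN 2 and CR TN 1 PCSK1 was at 12.06 and 12.04, SCG2 at 15.52 and 15.26, and CHGA at 16.83 and 16.66, all among the 3 lowest values of their gene.

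The same comparison within each breed gave 41 higher and 4 lower probes in Large White pigs, 40 and 5 in Creole pigs, but 9 and 36 in the cross. By the main probe of each of the 9 genes the splits were 7 and 2, 8 and 1, and 3 and 6. Among all probes 51.7%, 51.1% and 52.9% were higher. Within each of the 3 breeds 0% of all probes and 0 of the 45 passed the adjusted threshold, with 2 of the 45 in Creole, 1 in F1 and 1 in Large White at an unadjusted P under 0.05, against 5.88%, 5.71% and 6.76% of all probes. Without the 2 arrays that stood apart the split was 17 and 28 in Large White and 31 and 14 in Creole, while F1, which holds neither array, kept its 9 and 36. By main probe the split was then 1 and 8 in Large White and 8 and 1 in Creole. Leaving out the probes of doubtful strand gave 38 and 4 in Large White, 38 and 4 in Creole, and 8 and 34 in F1. All 16 CHGB probes and all 8 CPE probes were lower in F1 HS than in F1 TN, by 0.045 to 0.243 and by 0.063 to 0.220 respectively, and so were the 15 and 7 without O9241 and O9985. For CPE the largest of these differences was that of O9985, and the other 7 probes lay between -0.142 and -0.063. Not every probe followed its gene. Correlations with the main probe were -0.54 for O9241 of CHGB, 0.50 for O9985 of CPE, 0.46 for A_72_P189736 of PAM and 0.059 for A_72_P479234 of CHGA. Many of these probes overlap in sequence, and none of the differences passed the adjusted threshold.

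The interaction of breed and temperature was called for 0 of 45 probes and for 0% of all probes by limma, and at an unadjusted P under 0.05 for 2 of 45 against 4.29% of all. These were the probe O9985, named after CPE but of doubtful strand (adjusted P = 0.925), whose HS minus TN difference was 0.26 in Large White, 0.02 in Creole and -0.22 in the cross, and the PCSK1 probe A_72_P180766 (adjusted P = 0.925), with -0.39, 0.80 and 0.21 in the same order. Without LW TN 2 and CR TN 1 the differences of O9985 were 0.18, -0.08 and -0.22 and those of A_72_P180766 -0.66, 0.65 and 0.21, and the adjusted P of the interaction was 0.969 for both. The breeds were therefore not shown to differ in the response of these genes to heat.

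**Figure D2:**
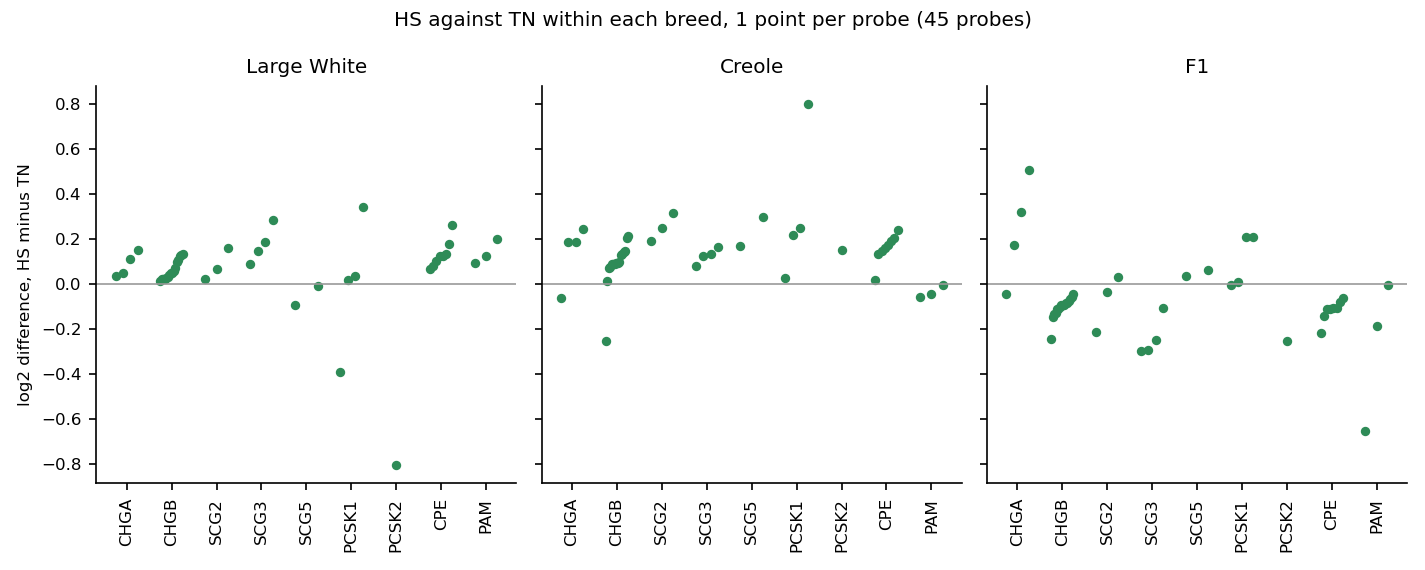
Log2 difference of HS minus TN (vertical axis) for each of the 45 probes, by gene (horizontal axis) and breed (panels); each point is 1 probe. Points lie above 0 for 9 probes in F1, 40 in Creole and 41 in Large White, and without LW TN 2 and CR TN 1 the Large White count becomes 17 and the Creole count 31.

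The second question was whether the breeds differed. None of the 45 probes passed the adjusted threshold for Large White against Creole (6.53% of all probes passed), F1 against Large White (1.43%), F1 against Creole (6.66%) or F1 against the mean of the parental breeds (2.75%). Probes with an unadjusted P under 0.05 numbered 7, 7, 9 and 8 of 45 in this order, while their shares among all probes were 18.4%, 13.7%, 21.5% and 16.7%. With LW TN 2 and CR TN 1 left out they numbered 7, 16, 18 and 20 of 45, against 18.6%, 15.3%, 21.8% and 17.7% of all probes. The F1 probe counts thus rose by over 1.5 times without these arrays, neither of which is an F1 array. Probes of 1 gene are not independent of each other, and 16 of the 45 are of CHGB and 8 of CPE. Counted by the main probe of each of the 9 genes, the numbers were 3, 3, 1 and 1 with all arrays. They were 3, 3, 2 and 3 without LW TN 2 and CR TN 1. These comparisons share arrays, so they are not independent of each other.

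PCSK2 gave the largest difference between the parental breeds. Its only probe, in the coding part of the transcript, is shown because every PCSK2 value rests on it:
A_72_P441519: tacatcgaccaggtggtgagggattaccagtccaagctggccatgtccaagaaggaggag
The LW TN arrays read 8.69, 10.26, 8.46, 8.62 and 9.22, and the CR TN arrays 8.44, 7.10, 7.90, 7.77 and 7.00. The lowest LW TN value (8.46) lay just above the highest CR TN value (8.44, on CR TN 1), so the TN groups did not overlap. This gap is small beside the SD within groups of 0.829. The share of all probes whose LW TN and CR TN groups do not overlap was not computed. Under heat the LW arrays lay between 7.71 and 9.26 (median 8.02) and the CR arrays between 5.96 and 8.62 (median 8.08), so they overlapped. Over both temperatures the difference of Large White minus Creole was 0.89 (SE 0.33), or 1.85-fold, with 10 of 11 LW arrays above the Creole mean (adjusted P = 0.113). Large White was higher on all 5 slides, by 0.36 to 1.66. With slide as a fixed block the difference was 0.95 and passed the threshold (adjusted P = 0.0342), as it did with array weights (0.90, adjusted P = 0.0442). Without LW TN 2 and CR TN 1 it did not pass, as the lowest adjusted P of the 9 main probes was 0.172. Over all alternatives the difference ran from 0.72 to 0.99 and its adjusted P from 0.0342 to 0.211. F1 lay between the parents at a mean of 8.36, with 7.72 in Creole and 8.61 in Large White, and it differed from neither at the adjusted threshold.

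SCG3, a granin that binds CHGA and holds it at the granule membrane, was higher in Large White than in Creole on all 4 of its probes. The LW TN arrays read 14.13, 13.25, 14.02, 14.09 and 14.06, and the CR TN arrays 13.15, 13.82, 13.93, 13.25 and 13.72. Except for LW TN 2, every LW TN value lay above every CR TN value. The LW HS arrays lay between 13.82 and 14.35 (median 13.94) and the CR HS arrays between 13.43 and 13.96 (median 13.77).

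The difference was 0.30 on the main probe (SE 0.14) and 0.30 to 0.36 on all 4 probes, with unadjusted P between 0.0179 and 0.0467 and adjusted P between 0.149 and 0.262. Large White was higher on all 5 slides for each probe, and 10 of 11 LW arrays lay above the Creole mean. Without LW TN 2, probe O7648 (0.41, adjusted P = 0.0201) and probe A_72_P492743 (0.45, adjusted P = 0.0318) passed the threshold. Against F1 the probes disagreed. F1 minus Creole was -0.02 on the main probe and 0.33 on O7648, where 11 of 11 F1 arrays lay above the Creole mean (adjusted P = 0.138). F1 minus Large White was -0.31 on the main probe (adjusted P = 0.306).

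**Figure D3:**
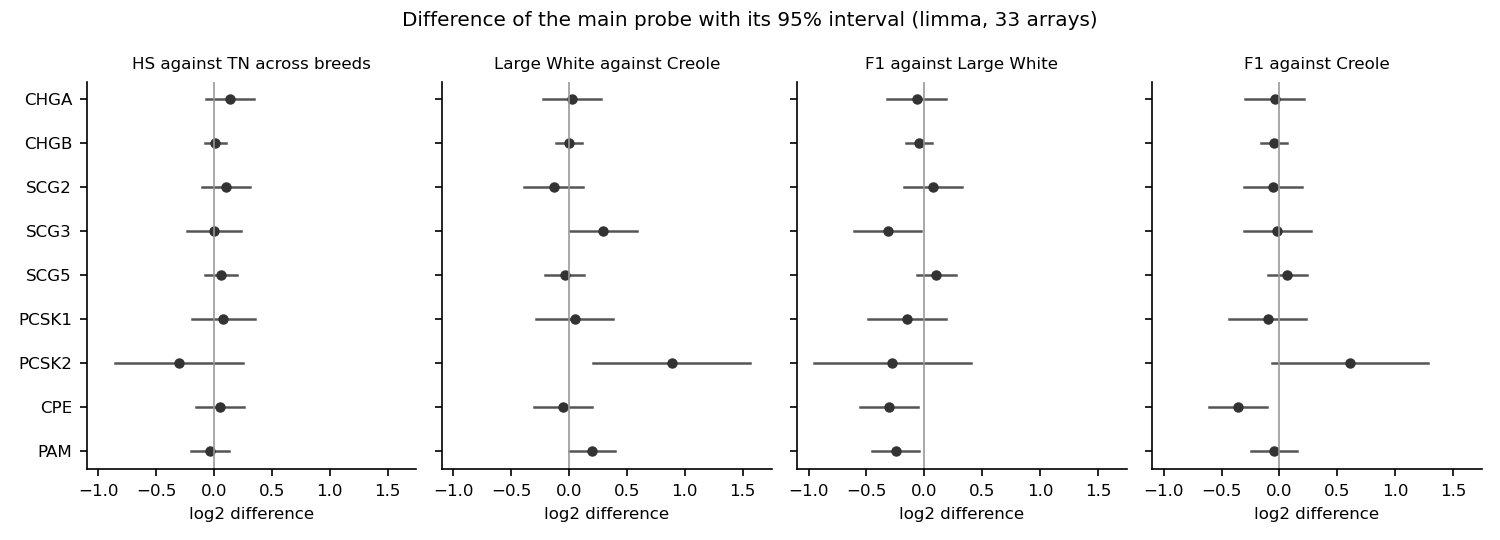
Log2 difference of the main probe of each gene (horizontal axis) with its 95% interval (line) in 4 comparisons over 33 arrays. The intervals of PCSK2, SCG3 and PAM lie above 0 for Large White against Creole, those of CPE, SCG3 and PAM below 0 for F1 against Large White and that of CPE below 0 for F1 against Creole, but no difference passed the threshold after adjustment over 47083 probes.

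CPE, which removes the basic residues left by the convertases, was lowest in F1. The F1 HS arrays read 15.56, 14.86, 16.21, 16.18 and 15.28, and the F1 TN arrays lay between 15.24 and 16.24 (median 15.70). The 11 CR arrays lay between 15.69 and 16.26 (median 16.09) and the 11 LW arrays between 15.61 and 16.27 (median 15.99). F1 thus came close to the parental maximum on some arrays and lay below the parental minimum on others. The SD was 0.442 in F1, 0.191 in Creole and 0.181 in Large White, a difference in spread that was not tested.

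On the main CPE probe F1 minus Creole was -0.36 (SE 0.12, adjusted P = 0.0755) and F1 minus Large White -0.31 (SE 0.12, adjusted P = 0.230), and 3 of 11 F1 arrays lay above the mean of each parent. F1 was lower than both parents on all 5 slides, from -0.64 to -0.13 against Creole and from -0.59 to -0.10 against Large White. Large White and Creole differed by -0.05 (interval -0.30 to 0.20). Of the 8 CPE probes, 4 had an unadjusted P under 0.05 against Creole, with differences from -0.36 to -0.31 and adjusted P from 0.0533 to 0.0865. These 4 are not independent, since 3 of them overlap in sequence. Without LW TN 2 and CR TN 1 all 4 passed the threshold against Creole (main probe -0.40, adjusted P = 0.0496) and against the parental mean (-0.37, adjusted P = 0.0495), which makes 4 of the 45 probes, while 6.49% and 2.96% of all probes passed. With array weights all 4 passed as well, the lowest adjusted P against Creole being 0.0205. Leaving out F1 TN 1, F1 HS 3 or F1 HS 4 alone also let all 4 pass against both. These are the F1 arrays with the highest CPE for their group, at 0.51, 0.59 and 0.57 above its mean. Leaving out any of them therefore lowers the F1 mean. Leaving out CR TN 1 let 2 probes pass in each comparison, leaving out LW TN 2 let 1 pass in each, and leaving out LW HS 2 or CR TN 4 let 1 pass against Creole. In the other direction, the difference from Creole on the main probe was -0.26 without F1 HS 2 (adjusted P = 0.172), -0.31 without F1 HS 5 (adjusted P = 0.139) and -0.29 with the processed signal (adjusted P = 0.255). Over the alternatives the adjusted P ran from 0.0300 to 0.255.

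A pair of overlapping CPE probes is shown because they lie in the coding part, on the strand of the transcript, and were not among the 4 with an unadjusted P under 0.05. Capitals mark the 39 bases that both share:
A_72_P089051: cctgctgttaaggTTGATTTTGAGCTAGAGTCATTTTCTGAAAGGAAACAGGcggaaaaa
A_72_P444739: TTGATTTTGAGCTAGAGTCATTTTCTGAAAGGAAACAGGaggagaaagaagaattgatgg
They start at bases 1320 and 1333 of the transcript. F1 minus Creole was -0.21 on A_72_P089051 and -0.26 on A_72_P444739, and both intervals included 0. The other probes outside the 4 gave -0.18 (A_72_P595124) and 0.07 (O9985, the dimmest).

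**Figure D4:**
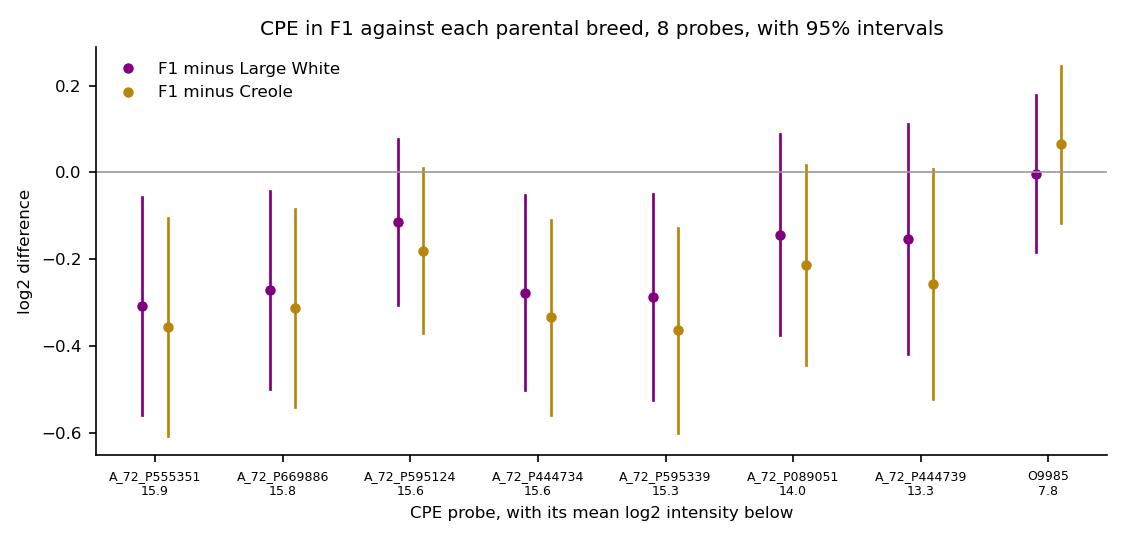
Log2 difference of F1 minus Large White (purple) and F1 minus Creole (gold) for each of the 8 CPE probes, with 95% intervals (vertical axis); probes are ordered by mean log2 intensity, printed below each name. The intervals of 4 probes lie wholly below 0 in both comparisons, and the dimmest probe lies near 0.

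PAM, which forms the amide end that many peptide hormones need, was lower in F1 than in Large White on its main probe. The 11 LW arrays lay between 11.29 and 11.98 (median 11.62) and the 11 F1 arrays between 10.99 and 11.63 (median 11.47). The ranges overlapped, yet 0 of 11 F1 arrays lay above the Large White mean of 11.64. The difference was -0.25 (SE 0.10, adjusted P = 0.225), and F1 was lower on all 5 slides. The other PAM probes gave -0.40 (O7890, whose strand could not be judged, adjusted P = 0.503) and 0.0048 (A_72_P189736, adjusted P = 0.988), so they did not all show the difference. Against Creole the main probe gave -0.05 (interval -0.25 to 0.15), and Large White minus Creole was 0.20 (adjusted P = 0.270).

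PCSK1 did not differ between breeds on its main probe, where the intervals of all 3 pairs included 0 (Large White minus Creole 0.05, interval -0.29 to 0.38). A pair of its probes, O9966 and A_72_P003306, have the same 60 bases at separate spots. They correlated at r = 0.994 over 33 arrays and differed by 0.188 on average (SD 0.044, from 0.110 to 0.276). The probe A_72_P180766, which starts at base 2813 of the transcript, gave F1 minus Large White as -0.71 (SE 0.24, adjusted P = 0.130), lower on all 5 slides, and -0.81 with array weights (adjusted P = 0.0336).

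On their main probes the remaining granins differed by less than their SD. In the order Large White, Creole and F1 (n = 11 each), the mean ± SD of CHGB was 18.57 ± 0.13, 18.57 ± 0.090 and 18.52 ± 0.13, that of SCG2 16.01 ± 0.30, 16.15 ± 0.34 and 16.08 ± 0.26, and that of SCG5 15.44 ± 0.18, 15.47 ± 0.22 and 15.53 ± 0.18. CHGA was at 17.39 ± 0.36, 17.37 ± 0.29 and 17.31 ± 0.26. Other probes gave larger differences. The SCG5 probe A_72_P574509 gave Large White minus Creole as -0.22 (adjusted P = 0.261), and CHGB was lower in F1 than in Creole on 15 of 16 probes, down to -0.16, with 3 at an unadjusted P under 0.05 and the lowest adjusted P at 0.134. The probe O9972, of doubtful strand, gave F1 minus Creole as 0.21 (adjusted P = 0.209) while the main SCG2 probe gave -0.06.

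The direction of the breed differences over all 45 probes depended on scaling, and their balance on the arrays used. F1 was higher than Creole on 13 probes and lower on 32, Large White higher than Creole on 19 and lower on 26, and F1 higher than Large White on 17 and lower on 28. With LW TN 2 and CR TN 1 left out these splits were 10 and 35, 17 and 28, and 7 and 38. With all arrays and the processed signal over the 75th percentile of each array they became 31 and 14, 31 and 14, and 26 and 19. Without the 3 probes of doubtful strand the splits on quantile-normalized values were 10 and 32, 16 and 26, and 15 and 27. By the main probe of each of the 9 genes they were 2 and 7, 5 and 4, and 2 and 7, with or without LW TN 2 and CR TN 1. Breed differences of CPE, on its main probe or the mean of its probes, kept their sign in each of the 46 fits run. Those of F1 against Creole ran from -0.41 to -0.24, although the CPE probe O9985 gave 0.07. The difference of PCSK2 between Large White and Creole also kept its sign.

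CHGB, SCG2, SCG3, SCG5 and CPE varied together from pig to pig once the mean of each breed-by-temperature group was subtracted, with Pearson's r from 0.72 to 0.91 in all 10 pairs (Spearman's rho 0.755 to 0.884, 33 arrays). The highest r was that of SCG3 and CPE, at 0.914. Every permutation P adjusted over the 36 pairs was 7.2e-05 or lower for these 10 pairs. Without the 2 arrays farthest from the median of 1 gene of the pair r was 0.659 to 0.885, with slide as an added term 0.663 to 0.917, and without LW TN 2 and CR TN 1 it was 0.687 to 0.923. On F1 HS 2 and F1 HS 5, CPE (14.86 and 15.28), SCG3 (12.84 and 13.14) and CHGB (18.32 and 18.29) were all low.

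PAM followed these 5 genes at r from 0.523 to 0.623 and PCSK1 at 0.451 to 0.646. CHGA, in contrast, correlated with them at 0.272 to 0.470, and without LW TN 2 and CR TN 1 at 0.021 to 0.193. Of all 36 pairs 24 passed the adjusted threshold by r and 26 by rho, and 17 passed by r without those 2 arrays. PCSK2 correlated negatively with all 8 other members, from -0.40 to -0.03. Only the pair of PCSK2 with PCSK1 passed (r = -0.40, rho = -0.40, adjusted permutation P = 0.0324). For this pair r was -0.17 with slide as an added term and -0.23 without LW TN 2 and CR TN 1. All 28 pairs without PCSK2 were positive. These correlations are between genes on the same arrays, so array quality and cell content are shared by both values of a pair.

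**Figure D5:**
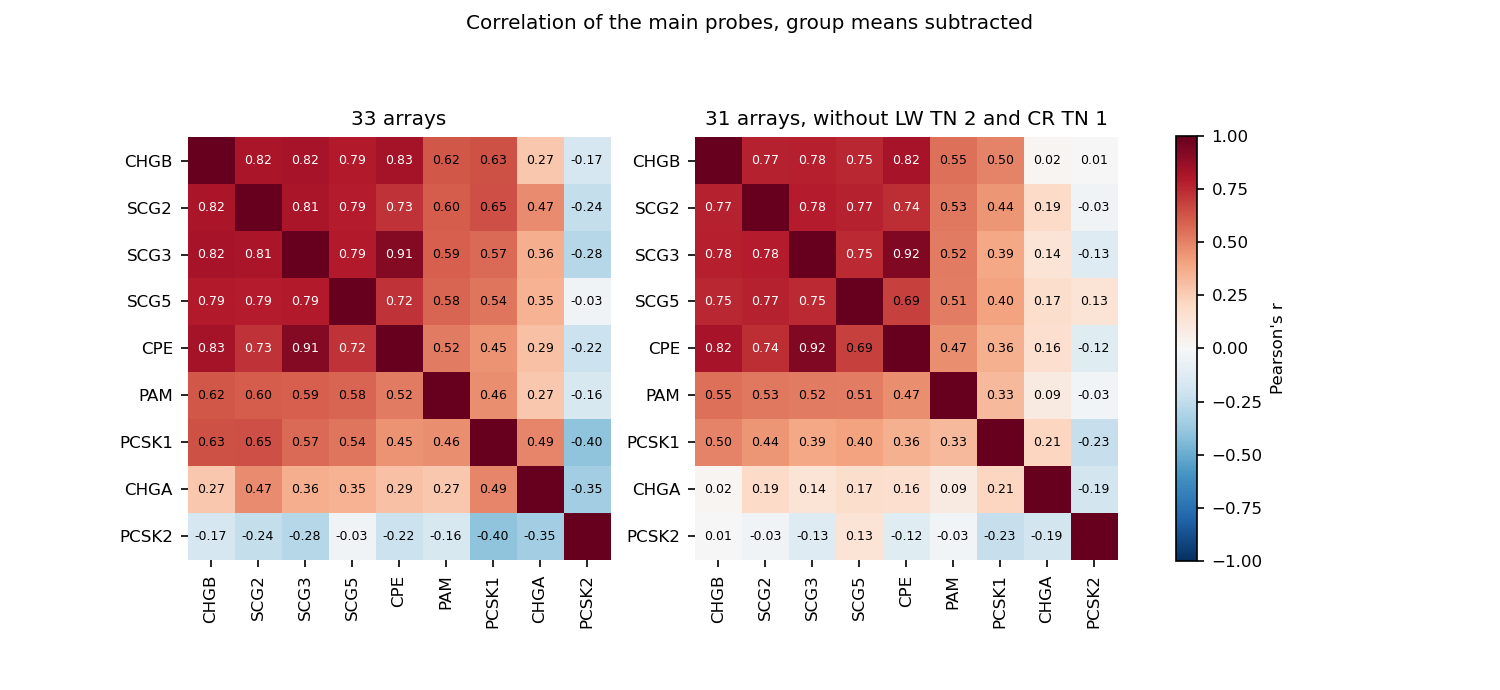
Pearson's r between the main probes of 9 genes after subtracting group means, over all 33 arrays (left) and without LW TN 2 and CR TN 1 (right); colour runs from -1 (blue) to 1 (red). The block of CHGB, SCG2, SCG3, SCG5 and CPE runs from 0.72 to 0.91 on the left and from 0.687 to 0.923 on the right. On the right CHGA lies between -0.19 and 0.21 and PCSK2 between -0.23 and 0.13.

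Marker lists of other cell types moved with the members, in relations examined after the data had been seen (72 in all). The mean of 5 measured posterior lobe markers of 8 listed was between 10.99 and 11.64 on 31 arrays and at 12.24 and 12.35 on LW TN 2 and CR TN 1. Of its defining hormones, AVP was within the range of the other arrays on both, and OXT was at 15.91 and 15.76 against at most 15.86. The list correlated at r from -0.68 (SCG3) to -0.44 (PAM) with 8 members and at 0.51 with PCSK2, and all 9 passed the threshold by a permutation test adjusted over the 72. For SCG3 rho was -0.69 and r without the 2 farthest arrays was -0.62, for PCSK2 rho was 0.52 and r without them 0.43, but for CHGA r fell from -0.49 to -0.15. The anterior pituitary hormone list correlated positively with SCG2 (r = 0.65), PCSK1 (0.64), SCG3 (0.55), CHGB (0.54), CHGA (0.54) and SCG5 (0.48), which passed the same threshold. CPE (0.35), PAM (0.32) and PCSK2 (-0.41) did not pass. Without the 2 farthest arrays r was 0.45 for SCG2 and 0.22 for CHGA. The neuron list passed for PCSK1 (0.49), SCG5 (0.47), PAM (0.44), CHGB (0.43) and SCG2 (0.41), and the endothelial list for PCSK1 (-0.44) and PCSK2 (0.41). The part of these cells in the results was not tested.

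The connective tissue list (6 of 6 measured) correlated with PAM at r = -0.57 (rho = -0.54, adjusted permutation P = 0.0051). The list passed too for SCG3 (r = -0.52), SCG5 (-0.48), SCG2 (-0.43), CHGB (-0.41) and PCSK1 (-0.41). For CPE (-0.40), CHGA (-0.31) and PCSK2 (0.14) it did not pass. It also differed between breeds. Of its 6 genes 5 were lower in Large White than in Creole and 4 lower in F1 than in Creole at the adjusted threshold, against 6.53% and 6.66% of all probes. For HS against TN 0 passed, but all 6 were lower (median -0.37) and 5 had an unadjusted P under 0.05, against 8.68% of all probes. With LW TN 2 and CR TN 1 left out all 6 stayed lower in HS than in TN (median -0.27), 4 of them at an unadjusted P under 0.05. The mean of its 6 log2 values per array ran from 11.75 to 12.96 in Large White and from 12.15 to 13.18 in Creole. Other marker lists also held genes past the threshold between breeds. Of 5 endothelial genes 2 were higher in Large White than in Creole, and in F1 1 was higher and 1 lower than in Creole. In F1 1 was lower than in Large White (1.43% of all probes) and 1 below the parental mean (2.75%). Of 4 neuron genes 1 was higher in Large White than in Creole. Of 5 genes of glia, stellate and stem cells 1 was lower in F1 than in Creole. The part of these lists in the breed differences of SCG3, PCSK2, PAM and CPE was not tested.

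For each member the 3 named genes most alike across the 33 arrays were taken from 10431 genes, by Pearson's r of group-mean-subtracted values. For the tight set these were BEX3 (0.92), DPYD (0.91) and SMARCA1 (0.91) for CPE, SLC25A14 (0.91), ANGPT1 (0.91) and SLC38A11 (0.90) for SCG3, and CD164 (0.90), TMED2 (0.89) and PRDX4 (0.87) for CHGB. For SCG2 they were KCNK1 (0.89), CLDN8 (0.87) and NSF (0.86), and for SCG5 ARF4 (0.86), NUDCD1 (0.84) and LYSMD2 (0.83). TMED2 carries cargo between the endoplasmic reticulum and the Golgi, ARF4 acts in Golgi traffic, and NSF takes apart SNARE complexes after fusion. PCSK2 was most like NRN1 (0.87), ESM1 (0.85) and PPP1R14C (0.76), of which ESM1 is known from endothelial cells. PCSK1 was most like MEGF9 (0.85), ENTPD3 (0.82) and DNAJB12 (0.81), PAM like ANO5 (0.85), LARS (0.82) and UFD1 (0.82), and CHGA like NCALD (0.76), EFNA4 (0.75) and PPP2R2B (0.70).

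The wider granule pathway was described through 4 lists, by the brightest probe of each gene. For HS against TN none of their genes passed the threshold. Of 20 measured genes of regulated exocytosis (36 listed) 19 were higher in HS, with a median of 0.10 against 0.0078 over all probes, and 4 had an unadjusted P under 0.05 (8.68% of all probes), among them NAPA (0.15), RIMS2 (0.27) and SYT5 (0.20). The adjusted P of these genes ran from 0.226 to 0.423. Of 18 measured genes of granule formation and membrane (23 listed) 17 were higher (median 0.054). Without LW TN 2 and CR TN 1, 18 of the 20 exocytosis genes were higher (median 0.059 against 0.0053 over all probes), 3 at an unadjusted P under 0.05 (7.36% of all probes), and 14 of the 18 genes of granule formation (median 0.031). With all 33 arrays, lower values in HS were given by the 6 connective tissue genes above, by 5 of 5 endothelial genes (median -0.21), or 4 of 5 without those arrays (median -0.10), and by 4 of 5 genes of glia, stellate and stem cells. Neuron markers split 2 to 2, posterior lobe markers were higher for 2 of 5, and PAX7 was higher. All 6 measured blood cell genes were lower, and HBB, a chain of haemoglobin, was the 1 gene among these markers past the threshold (-1.15, adjusted P = 0.0307), with an adjusted P of 0.114 without those arrays. The part of these cells in the shift of the exocytosis genes was not tested. The other granins and processing enzymes (15 of 19 measured) split 7 to 8, and the transcription factors of endocrine cells (9 of 13) 3 to 6.

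Between breeds, some listed genes passed the threshold. RAB27B, a small GTPase that docks granules, was higher in Large White than in Creole by 0.97 (SE 0.14, adjusted P = 1.86e-05) and in F1 than in Creole by 0.70 (adjusted P = 0.00218). CPLX2, which clamps SNARE complexes, was higher by 0.60 and 0.54. RAB37, a related GTPase, was lower than in Creole in both, with differences of -0.33 and -0.45. These were the 3 of 20 measured exocytosis genes that passed in each comparison, in which 6.53% and 6.66% of all probes passed.

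The shares of all probes that passed, to be read beside the counts of listed genes that follow, were 6.53% for Large White against Creole, 6.66% for F1 against Creole and 2.75% for F1 against the parental mean. Among the other granins and enzymes (15 measured), QPCT (0.29), which forms the pyroglutamate end of peptides, and the protease CTSB (0.18) were higher in Large White than in Creole. PCSK1N, an inhibitor of PCSK1, was higher in F1 than in Creole by 0.23 (adjusted P = 0.0126) and than the parental mean by 0.18 (adjusted P = 0.0448), although the latter did not pass without LW TN 2 and CR TN 1 (0.16, adjusted P = 0.0670), and QPCTL changed by -0.40 in F1 against Creole. Among 18 genes of granule formation, the proton pump subunit ATP6V1A (0.25), ICA1L (0.35) and the zinc transporter SLC30A5 (0.30) were higher in F1 than in Creole, and ATP6V1A (0.20) and SLC30A5 (0.28) were above the parental mean. The monoamine transporter SLC18A1 changed by -0.44 and NEUROD1, a transcription factor of endocrine cells, by -0.48 in Large White against Creole. None of the genes of the 4 lists passed for F1 against Large White.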

How the data were processed

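Pituitary RNA of 33 pigs was hybridised to Agilent porcine arrays with 1 colour, 1 array per pig, on 5 slides that each held both temperatures and all 3 breeds. The scanner files deposited by the authors hold the intensity of each spot as read by Agilent Feature Extraction 10.10.1.1, and the authors' table holds log2 values that they quantile-normalized from the median intensity without background correction. The genome build behind the probe design is not given in the sources used here.

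Following that processing, outlier spots were left out, median intensities were quantile-normalized without a pseudocount, and log2 was taken. The values of the 45 probes differed from the deposited log2 table by at most 0.0082. Probes entered the tests (47083 of 60305) if 1 or more of the 6 groups had 75% or more of its arrays well above background. limma 3.58.1 in R 4.3.3 was fitted with breed and temperature as terms, or with the 6 groups for effects within breeds and their interaction. P-values were two-sided and adjusted by Benjamini-Hochberg over all kept probes, with a threshold of 0.05. limma was tested on simulated data. Pen, slaughter day and parents were random effects in the study's methods and are not in the labels, so they were not fitted, and littermates count as independent here. The 33 arrays limit the precision.

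Correlations used 100000 permutations. The named genes were all 10 members, every listed pathway gene past the threshold (up to 5 per list and comparison) and the 3 genes most like each member. The members and lists were chosen with earlier results of these data known. Alternatives were the deposited table, Feature Extraction's processed intensity, which has its background subtracted, normexp correction, no filter or a filter on all arrays, slide as a block, array weights, LW HS 3 as Creole or left out, other choices of probe and leaving out each array. Leaving out LW TN 2 and CR TN 1 together, and leaving out 3 probes of doubtful strand, were added after the data had been seen. The 0 or 1 marks of the scanner files were used as deposited.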

Additional observations from a re-analysis of the deposited data

Results flagged for a closer look

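In 54 sets of arrays, 1 for each gene and group, 5 held an array whose gap to its neighbour was large for the range of its group. Chance alone would give about 1 in 20. The convertase PCSK1 was at 12.06 on LW TN 2, with the next LW TN array at 13.16, and SCG3 was at 13.25 on the same array, with the next at 14.02. SCG2 was at 15.26 on CR TN 1, with the next CR TN array at 16.08. These 3 values come from the arrays that stood apart in TSHB and in markers of other cell types. PCSK2 was at 5.96 on CR HS 4, with the next at 7.75. CHGB was at 18.54 on CR HS 6, with the next at 18.61, in a group whose SD was only 0.040.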

How the results depend on the processing

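The result that 0 of 45 probes passed held under every alternative for HS against TN, within each breed and for the interaction. It did not hold for the breed comparisons. For F1 against Creole 1 probe passed with normexp correction, 1 with probes well above background on all arrays, 1 with slide as a random block, 4 with array weights and 4 without LW TN 2 and CR TN 1, where 7.11%, 7.38%, 8.50%, 8.18% and 6.49% of all probes passed. For Large White against Creole 1 passed with slide as a fixed block, 2 with array weights and 1 without LW TN 2 and CR TN 1 (7.64%, 9.25% and 6.54% of all probes). With array weights 1 passed for F1 against Large White (3.75%) and 4 for F1 against the parental mean (4.62%), as did 4 without LW TN 2 and CR TN 1 (2.96%). Leaving out 1 array at a time gave 0 to 2 for Large White against Creole, 0 to 4 for F1 against Creole and 0 to 4 for F1 against the parental mean. The shares of all probes in these fits are not given here, so these counts stand without a background.

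The sign of small differences turned, none of them past the threshold. With the processed signal F1 against Creole gave 0.0055 for SCG3, 0.039 for SCG2, 0.080 for CHGA and 0.089 for CHGB, Large White against Creole 0.0076 for SCG5 and 0.035 for CHGB, F1 against the parental mean 0.034 for CHGA and 0.071 for CHGB, and F1 against Large White 0.054 for CHGB. HS against TN gave -0.021 for SCG3 with normexp, -0.026 for SCG3, -0.0043 for CHGB and -0.056 for PCSK1 with array weights, and -0.096 for SCG3, -0.0010 for SCG2, -0.00028 for CPE, -0.019 for CHGB and -0.061 for PCSK1 without LW TN 2 and CR TN 1, where F1 against the parental mean gave -0.068 for SCG2. F1 against Creole gave 0.0016 for SCG3 with slide as a fixed block and 0.018 for CHGA with LW HS 3 as Creole. With the mean of all probes it gave 0.058 for CHGA, 0.0044 for SCG2 and 0.10 for SCG3, while CHGA gave 0.021 against Large White and 0.040 against the parental mean. The cause was not tested.

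Leaving out 1 array turned the sign between the extremes of -0.11 and 0.0091 (CHGA) and -0.086 and 0.070 (SCG3) for F1 against Creole, -0.033 and 0.36 (PCSK2) and -0.039 and 0.058 (SCG2) for F1 against the parental mean, -0.0030 and 0.032 (CHGB) and -0.054 and 0.062 (SCG3) for HS against TN, and -0.040 and 0.099 (CHGA), -0.027 and 0.020 (CHGB) and -0.044 and 0.14 (PCSK1) for Large White against Creole. Of the 36 correlations, 22 to 32 passed when 1 array was left out. No paired analysis was possible because the labels give no replicate numbers that groups share. Signal over background did not limit the 45 probes, which were well above it on all arrays.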
